A study of Mus musculus with 6 samples.

Results

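The 9 genes described here are the Notch receptors (*Notch1*, *Notch2*, *Notch3* and *Notch4*), the ligands *Jag1*, *Jag2*, *Dll1* and *Dll4*, and *Rbpj*, the DNA-binding factor of the pathway. They were chosen by name, and all 9 were found among the 59485 genes of the deposited table and were among the 25802 genes tested. The RNA came from sciatic nerves of P4 mice, from 3 controls and 3 mutants, with 1 animal per library. The mutants carried Ht-PA-Cre, Adar1 fl/fl and R26R, so that Cre recombinase, driven in neural crest (NC) cells by the promoter of human tissue plasminogen activator, deletes both floxed alleles of *Adar*, the gene of the RNA editing enzyme ADAR1. The control labels read wild-type, and in the methods of the study wild-type animals lack Cre and carry 1 or 2 floxed alleles together with R26R, the allele of a YFP tracer, which both genotypes therefore share. Whole nerves were used, so each value is a sum over Schwann cells (SCs), fibroblasts, vessels and every other cell of the nerve, only some of which descend from the NC.

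Notch receptors are single-pass membrane proteins that are activated by Delta and Jagged ligands on a neighboring cell. Binding exposes the receptor to an ADAM metalloprotease and then to the gamma-secretase complex, and the freed intracellular domain enters the nucleus, where it joins RBPJ and a Mastermind coactivator on genes such as *Hes1* and *Hey2*; without it, RBPJ acts with corepressors. In peripheral nerve, Notch signaling promotes the immature SC stage and opposes myelination, and in blood vessels it sets arterial identity and the maturation of mural cells.

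Values are normalized reads, that is, reads counted on a gene divided by the size factor of the library. The libraries held between 50938349 and 78250094 reads on genes. The targeted gene, *Adar*, was 2.72 higher on the log2 scale in the libraries labelled mutant (limma, adjusted p = 4.1e-05), with 11770, 9311 and 9773 normalized reads against 1602, 2066 and 1133, a direction opposite to a deletion. A single value covers the whole gene, and the deleted exons cannot be told apart from the others. Every direction below is therefore that of mutant-labelled against control-labelled libraries. Of 8 SC markers 6 were lower, beside 16.0% of all tested genes at the limit given below. Among the 6 were *S100b* (log2 fold change -3.07) and *Erbb3* (-1.55). *Ngfr*, which marks immature SCs, had a log2 fold change of 0.00. No SC marker was at 0 in any library. In bulk tissue, fewer cells of a type and less RNA per cell cannot be told apart.

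Of the 9 genes, *Jag1*, *Dll1* and *Rbpj* were higher in the mutant-labelled libraries and none was lower. A gene is called here at a Benjamini-Hochberg adjusted p at or under 0.05 from limma over all tested genes, a rule that called 19.0% of all tested genes higher and 16.0% lower. The 3 of 9 called higher stand against that 19.0%. For the count of 0 lower, edgeR and DESeq2 also gave 0, and at an unadjusted p under 0.05 *Notch2* alone was lower. In *Jag1*, *Dll1* and *Rbpj*, all 3 mutant-labelled values lay above all 3 control-labelled values, a pattern shown by 25.9% of tested genes, and in no member did they all lie below, as they did in 23.3%. The study set its limits at a p of 0.05 and a 2-fold change, in DESeq2 and with its own filter for expressed genes. Here these limits were applied to the unadjusted p and fold change of limma, over the genes tested here. *Jag1* and *Dll1* passed these limits upward, where 13.9% of tested genes did, and none of the 9 passed downward, where 10.4% did. The median log2 fold change was 0.11 over the 9 genes and 0.03 over all tested genes.

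**Figure D1:**
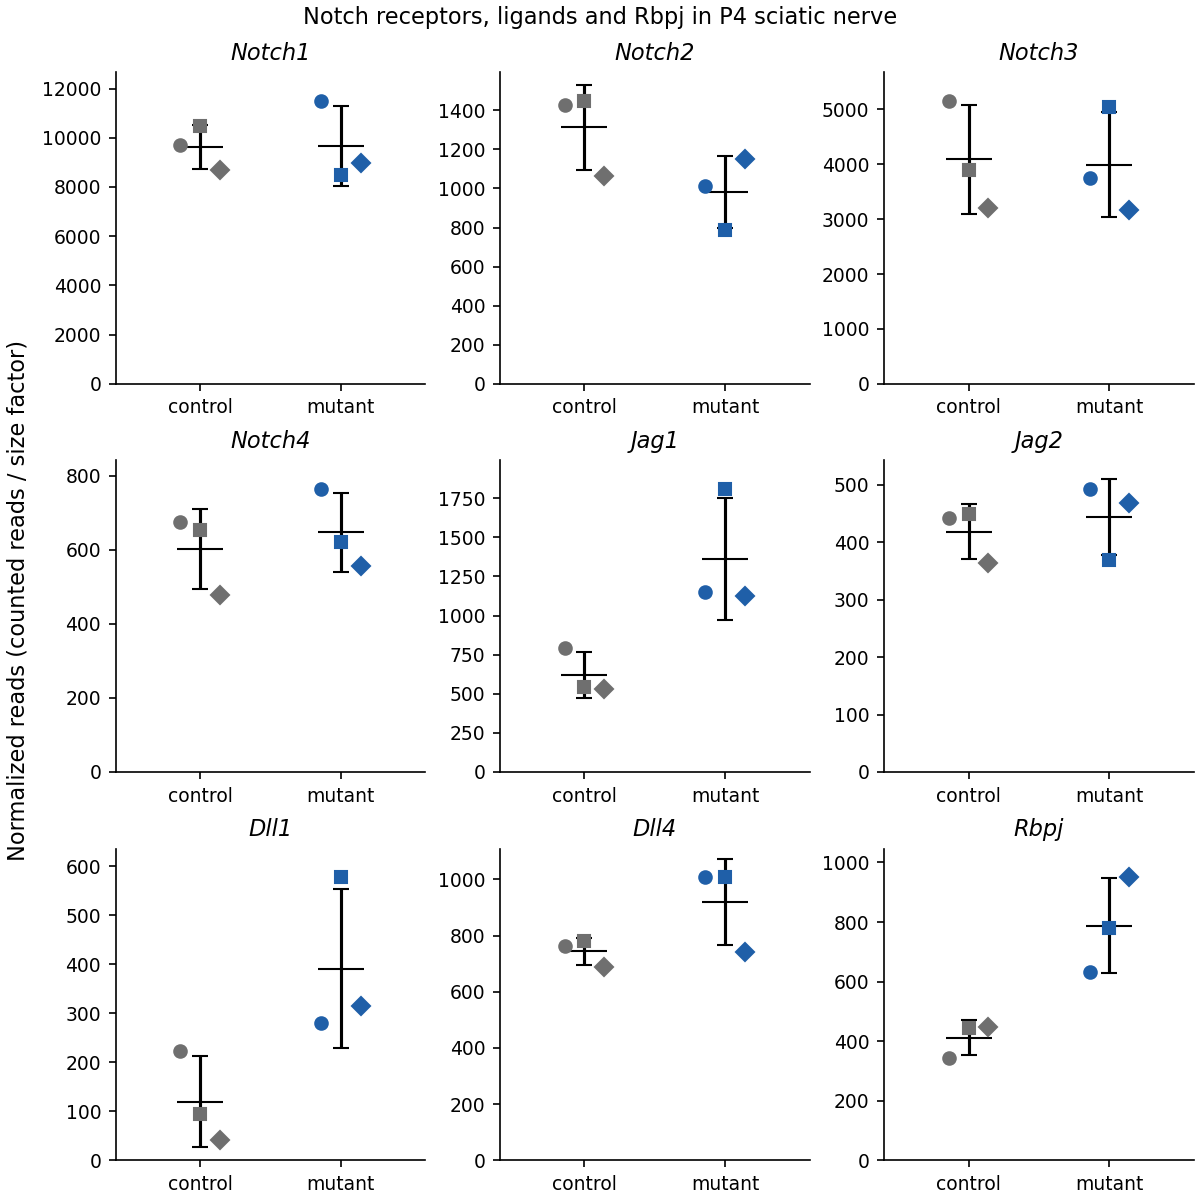
Normalized reads (reads counted on a gene divided by the library's size factor, vertical axes from 0) of the 9 genes in the 3 control-labelled (grey) and 3 mutant-labelled (blue) libraries, with circle, square and diamond for replicates 1, 2 and 3, horizontal bars for means and error bars for SDs. The 2 groups are separate in *Jag1*, *Dll1* and *Rbpj* and overlap in the other 6 genes.

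Sequences before annotated RefSeq starts of *Rbpj*, *Jag1* and *Hey2* are shown because *Rbpj* and *Jag1* rose and because RBPJ is the factor through which *Hey2* is known to respond to Notch. RefSeq gives the 250 bases before each annotated start on GRCm38.p6, the assembly that mm10 stands for. The core letters bound by RBPJ, TGGGAA or TTCCCA on the other strand, were found in 21.6% of all 32851 such windows, and the longer form GTGGGAA or TTCCCAC, which contains the core, in 5.42%. All 9 genes matched, with 11 windows, and the core was present in 2 of these 11, both of *Rbpj*. In the *Rbpj* window shown, the core begins 149 and 65 bases before the start, and in its other window, which overlaps the first, 205 bases before the start. Both *Rbpj* windows belong to starts inside the gene, since its row in the table begins at 53555706 and GENCODE begins it at 53466152, and the *Notch1* window also lies inside its row. The sequences before the outer starts of these genes were not analysed here. No window of the receptors or ligands held the core. Among the target genes, 4 had an entry, and *Hes5*, *Hes7* and *Hey2* held the longer form, whereas *Dtx1* did not hold the core. *Hes1*, *Hey1* and *Heyl* had no entry. The stretches below are the parts of the windows that lie outside annotated exons, read 5′ to 3′ on the strand of the gene, with the core in capitals. They are *Rbpj* at chr5:53590096-53590213 (plus strand), *Jag1* at chr2:137116645-137116770 (minus strand) and *Hey2* at chr10:30842802-30843033 (minus strand).
Rbpj: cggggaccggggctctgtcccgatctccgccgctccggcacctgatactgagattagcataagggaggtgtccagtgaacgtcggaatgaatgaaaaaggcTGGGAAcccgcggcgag
Jag1: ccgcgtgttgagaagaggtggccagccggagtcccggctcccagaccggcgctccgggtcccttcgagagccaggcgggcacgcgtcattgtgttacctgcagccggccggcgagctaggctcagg
Hey2: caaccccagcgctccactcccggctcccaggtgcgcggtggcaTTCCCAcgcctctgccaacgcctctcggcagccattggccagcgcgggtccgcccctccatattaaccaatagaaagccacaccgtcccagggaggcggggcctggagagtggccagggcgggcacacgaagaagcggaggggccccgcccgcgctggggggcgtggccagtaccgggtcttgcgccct
The *Rbpj* stretch holds the first of the matches in that window, the *Hey2* stretch holds the longer form 207 bases before the start, and the *Jag1* stretch holds no core. A match of letters is a description and not a binding site, since no binding was measured.

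Of the receptors, 0 of 4 were called in either direction in limma, edgeR and DESeq2 (1, *Notch2*, at an unadjusted p under 0.05 in limma), with a median log2 fold change of -0.01. *Notch1* (GSMG0022566, chr2:26457182-26516663, minus strand), the receptor best known in SC precursors and also active in endothelium, had 9700, 10490 and 8673 normalized reads in the control-labelled and 11510, 8488 and 8984 in the mutant-labelled libraries. The highest and the lowest value both came from mutant-labelled libraries, so the groups overlapped fully. Its log2 fold change was 0.00 (95% interval -0.30 to 0.30, adjusted p = 0.989). This interval leaves room for changes of up to 0.30 in either direction on the log2 scale.

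*Notch2* (GSMG0024709, chr3:98013526-98150367, plus strand), a broadly expressed receptor, had values of 1427, 1450 and 1063 in the control-labelled and 1012, 785.4 and 1151 in the mutant-labelled libraries. Control-labelled replicate 3 lay within the mutant-labelled range, and the other controls lay above it. The log2 fold change was -0.42 (95% interval -0.84 to 0.00, unadjusted p = 0.0495, adjusted p = 0.11), so it was not called. *Notch3* (GSMG0017366, chr17:32120893-32166852, minus strand), the receptor of mural cells, had 5160, 3899 and 3205 normalized reads in the control-labelled and 3756, 5040 and 3171 in the mutant-labelled libraries. The groups overlapped, with a log2 fold change of -0.03 (95% interval -0.51 to 0.44, adjusted p = 0.914).

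*Notch4*, a receptor largely of endothelial cells, had 675.1, 652 and 476.5 normalized reads in the control-labelled and 764.5, 620.4 and 556.8 in the mutant-labelled libraries. The groups overlapped, and the log2 fold change was 0.11 (95% interval -0.33 to 0.55, adjusted p = 0.689). The row of *Notch4* (GSMG0016544, plus strand) runs from 34226226 to 34588543 on chromosome 17, whereas the GENCODE annotation starts the gene at 34564268. This span holds 8 other rows on the same strand and 8 on the opposite strand, 12 of them with a symbol, so reads of other genes may enter its value.

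The ligands divided evenly, with *Jag1* and *Dll1* higher, *Jag2* and *Dll4* not called, and a median log2 fold change of 0.71. *Jag1* (GSMG0023603, chr2:137081451-137116523, minus strand) encodes a membrane ligand made by endothelial and mural cells among others, and overlaps no other row of the table. It had 789.5, 540.5 and 527.2 normalized reads in the control-labelled and 1150, 1810 and 1123 in the mutant-labelled libraries. Mutant-labelled replicate 2 was the highest, and the lowest mutant-labelled library still exceeded every control-labelled one. *Jag1* rose 2.18-fold, a log2 fold change of 1.12 (SE 0.23, 95% interval 0.60 to 1.65, adjusted p = 0.00637), from a mean of 619.1 ± 148 to 1361 ± 389 (SD, n = 3 libraries each). Without mutant-labelled replicate 2 the log2 fold change was 0.90 and the gene was still called, below 2-fold.

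*Dll1* (GSMG0017147, chr17:15367355-15375823, minus strand), a Delta ligand found in arterial endothelium and in embryonic progenitors, had the largest fold change among the 9 genes. Its values were 223.2, 93.54 and 41.82 in the control-labelled and 279.3, 577.9 and 315.5 in the mutant-labelled libraries. The controls spread widely, and control-labelled replicate 1 came close to mutant-labelled replicate 1, although the groups did not overlap. *Dll1* rose 3.84-fold, a log2 fold change of 1.94 (SE 0.56, 95% interval 0.65 to 3.23, adjusted p = 0.0282). Leaving out any library other than control-labelled replicate 1 ended the call. The adjusted p was 0.0705 without control-labelled replicate 2, 0.0653 without control-labelled replicate 3, and 0.0527, 0.102 and 0.069 without mutant-labelled replicates 1, 2 and 3. Without control-labelled replicates 1 and 3, each left out in turn, the log2 fold change was 2.55 and 1.35, and without control-labelled replicate 1 the adjusted p was 0.0065. With limma's variances taken without a trend, the adjusted p was 0.0877.

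*Jag2* (GSMG0009357, chr12:112907822-112929496, minus strand), the paralog of *Jag1*, had 442, 449.8 and 363.7 normalized reads in the control-labelled and 493.2, 368.6 and 468.8 in the mutant-labelled libraries. The groups overlapped, with a log2 fold change of 0.08 (95% interval -0.34 to 0.50, adjusted p = 0.769). *Dll4* (GSMG0021628, chr2:119325783-119335962, plus strand), the Delta ligand of endothelial tip cells and arteries, had 762.9, 780.5 and 689.4 in the control-labelled and 1009, 1008 and 740.8 in the mutant-labelled libraries. Mutant-labelled replicates 1 and 2 lay above all controls, and replicate 3 lay among them. The log2 fold change was 0.29 (95% interval -0.07 to 0.66, adjusted p = 0.191).

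The paralogs were also set against each other within each library, a pair of ratios chosen after the values were seen. *Jag1* to *Jag2* was 1.78, 1.2 and 1.45 in the control-labelled and 2.33, 4.9 and 2.39 in the mutant-labelled libraries. The groups did not overlap, and the mean log2 ratio differed by 1.05 (exact two-sided permutation test, p = 0.1, the smallest that 3 against 3 libraries can give, 0.2 after adjustment over both ratios). *Dll1* to *Dll4* was 0.294, 0.121 and 0.062 in the control-labelled and 0.278, 0.574 and 0.427 in the mutant-labelled libraries. Here mutant-labelled replicate 1 fell just below control-labelled replicate 1, and the mean log2 ratio differed by 1.65 (exact two-sided permutation test, p = 0.2, also 0.2 after adjustment).

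*Rbpj* (GSMG0051033, chr5:53555706-53657445, plus strand), the factor on which all 4 receptors converge, was higher by slightly less than the study's fold limit. It had 343.1, 444.1 and 447.3 normalized reads in the control-labelled and 631.4, 779.6 and 951.5 in the mutant-labelled libraries. The groups were well apart, and the row overlaps no other. *Rbpj* rose 1.90-fold, a log2 fold change of 0.93 (SE 0.20, 95% interval 0.47 to 1.38, adjusted p = 0.00741), from 411.5 ± 59.3 to 787.5 ± 160 (SD, n = 3 each). Rescaling the libraries to the same total, which shifted the median over all tested genes from 0.03 to 0.20, gave 1.09 for *Rbpj*, past 2-fold.

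Levels were compared between genes as normalized reads per kb of annotated exons, since the lengths of the regions that were counted are not known. In the control-labelled libraries *Notch1* was the highest at 676 ± 64 and *Notch3* followed at 505.4 ± 123 (SD, n = 3), and these overlapped within their SDs. *Dll4* stood next at 193.2 ± 12.5, apart from both neighbors and highest of the 4 ligands. *Notch2* at 121.8 ± 20.1, *Jag1* at 106.2 ± 25.4, *Notch4* at 74.58 ± 13.5 and *Jag2* at 60.09 ± 6.84 each overlapped the next. *Rbpj* at 32.27 ± 4.65 and *Dll1* at 28.33 ± 22.1 were the lowest. The exon length of *Rbpj*, 12.75 kb, includes exons before the start of its row, so its level per kb may be too low. The level of *Notch4* may hold reads of other genes. In the mutant-labelled libraries the receptor order was the same, with *Notch1* at 678.8 ± 114 and *Notch3* at 493.1 ± 118 per kb. *Jag1* at 233.6 ± 66.8 now stood beside *Dll4* at 238.6 ± 40.1, a gap well within the SDs. *Dll1* at 92.65 ± 38.6 per kb stood beside *Notch2* at 91.15 ± 17.1 and *Notch4* at 80.29 ± 13.2, above *Jag2* at 63.68 ± 9.48 and *Rbpj* at 61.76 ± 12.6, and each of these overlapped its neighbor in the order.

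Among 8 genes listed as Notch targets, *Nrarp* was not analysed here, *Hes5* was below the filter and 6 were tested. *Hes1* and *Hes7*, 2 of 6, were higher, beside 19.0% of all tested genes, and 0 of 6 were lower in limma, edgeR and DESeq2, also at an unadjusted p under 0.05, beside 16.0%. The log2 fold changes fell into a group of 3 near 0 and a group of 3 above 2, so the median of 1.05 lies near no single gene. *Hes1*, a repressor that holds progenitors undifferentiated, had 1340, 719.1 and 678 normalized reads in the control-labelled and 5233, 4888 and 3935 in the mutant-labelled libraries. Every mutant-labelled value lay far above every control-labelled one, with a log2 fold change of 2.42 (95% interval 1.85 to 2.99, adjusted p = 0.000199). *Hes7*, the oscillating repressor of somite segmentation, had 24.43, 18.9 and 5.069 in the control-labelled and 88.01, 129.3 and 97.92 in the mutant-labelled libraries. It rose by a log2 fold change of 2.85 (SE 0.61, adjusted p = 0.00735) from a level of few reads, and without control-labelled replicate 3, which held 4 reads, the value was 2.22.

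*Hey2*, which marks arteries, had 300.9, 83.15 and 74.77 normalized reads in the control-labelled and 180.4, 1376 and 585.5 in the mutant-labelled libraries. Control-labelled replicate 1 exceeded mutant-labelled replicate 1, so the groups overlapped. The log2 fold change of 2.08 (95% interval 0.36 to 3.81) passed the study's limits but was not called (adjusted p = 0.0628). It was called without control-labelled replicate 1 (2.72, adjusted p = 0.0316) or without mutant-labelled replicate 1 (2.85, adjusted p = 0.0188), and without mutant-labelled replicate 2 it was 1.39 (adjusted p = 0.195).

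*Hey1*, a vascular target as well, had 1882, 1962 and 2131 in the control-labelled and 1695, 2429 and 2007 in the mutant-labelled libraries. The controls lay inside the mutant-labelled range (log2 fold change 0.02, 95% interval -0.30 to 0.35, adjusted p = 0.915). *Heyl*, a target in mural cells, had 1992, 1385 and 1123 in the control-labelled and 861.2, 2686 and 1159 in the mutant-labelled libraries. Its lowest and highest values were both mutant-labelled (log2 fold change -0.07, 95% interval -0.96 to 0.82, adjusted p = 0.907). *Dtx1*, a ubiquitin ligase gene, had a log2 fold change of 0.01 (95% interval -0.54 to 0.55, adjusted p = 0.988). *Hes5* had no reads except 2 in mutant-labelled replicate 2.

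**Figure D2:**
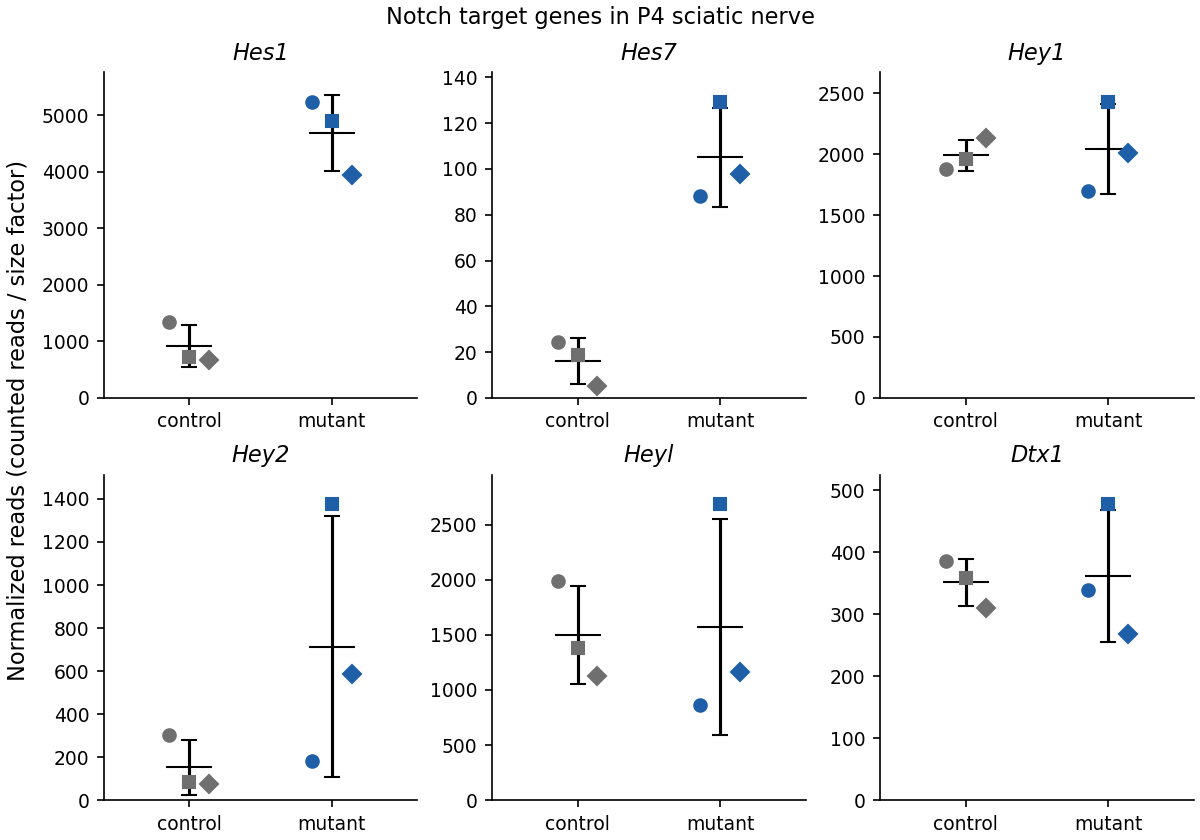
Normalized reads (vertical axes from 0) of the 6 tested target genes in the control-labelled (grey) and mutant-labelled (blue) libraries, with circle, square and diamond for replicates 1, 2 and 3, horizontal bars for means and error bars for SDs (n = 3). *Hes1* and *Hes7* are separate between the groups, while *Hey2* runs from 180.4 to 1376 in the mutant-labelled libraries and overlaps the controls.

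**Figure D3:**
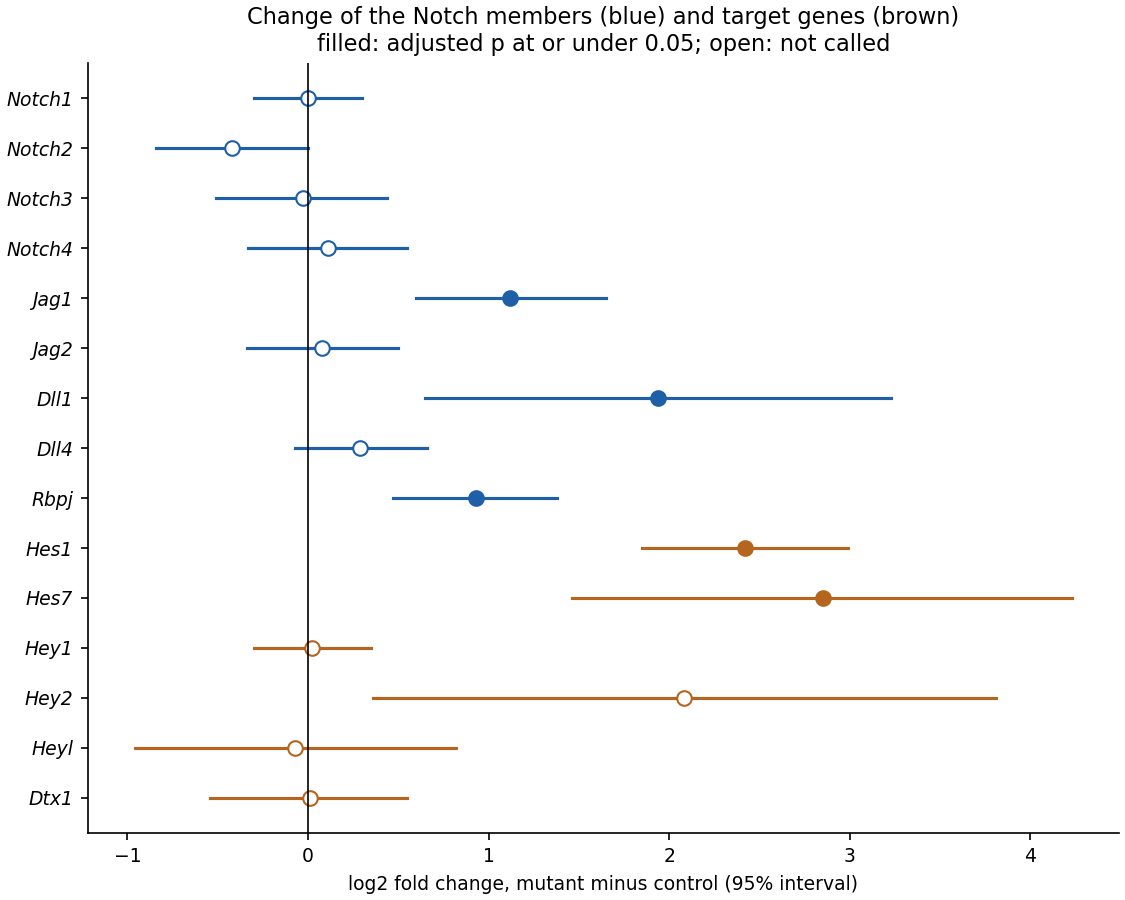
Log2 fold change, mutant-labelled minus control-labelled, of the 9 genes (blue) and the 6 tested targets (brown), as points with 95% intervals from limma, filled where the adjusted p is at or under 0.05. The filled points are *Jag1*, *Dll1*, *Rbpj*, *Hes1* and *Hes7*, all above 0, and the intervals of *Dll1*, *Hes7* and *Hey2* are wide.

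Several of the 9 genes are made by vessels, and the vessel markers were measured in the same libraries. The 12 endothelial markers summed to between 21400 and 32100 normalized reads in the control-labelled and between 30800 and 43800 in the mutant-labelled libraries, ranges that overlap. Of the 12, 4 were called higher, beside 19.0% of all tested genes. *Flt1*, a VEGF receptor gene, was called with a log2 fold change of 1.08, close to that of *Jag1*, and the pan-endothelial *Cdh5* had 0.16 and was not called. Of 6 arterial markers 0 were called in limma, edgeR or DESeq2, with 1, *Gja5*, higher at an unadjusted p under 0.05. The arterial sum ran from 5700 to 9370 in the control-labelled and from 7330 to 14200 in the mutant-labelled libraries, highest in mutant-labelled replicate 2. Of 10 mural markers 2 were called higher, near the 19.0% of all tested genes. These were *Tagln* (1.72) and *Des* (2.33), which muscle also expresses. The mural sum ran from 26900 to 52300 in the control-labelled and from 37600 to 90100 in the mutant-labelled libraries. Without control-labelled replicate 1 the counts called higher were 7 endothelial, 1 arterial and 4 mural markers, and without mutant-labelled replicate 1 they were 4, 2 and 3. Without any 1 of the other 4 libraries they were 2, 0 and 1. No marker of these lists was at 0 in all libraries. Their part in the values of *Jag1*, *Dll1* and *Hey2* was not tested.

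The order of the libraries for *Hey2* was that of *Gja5*, an arterial connexin gene, and *Acta2*, the smooth muscle actin gene, both singled out after their values were seen. *Gja5* had 516.4, 96.38 and 78.57 normalized reads in the control-labelled and 273.5, 1649 and 804.1 in the mutant-labelled libraries. In *Hey2*, *Gja5* and *Acta2* alike, mutant-labelled replicate 2 was the highest, then mutant-labelled replicate 3 and control-labelled replicate 1, with mutant-labelled replicate 1 below that. *Dll1* had the same order except that mutant-labelled replicate 1 lay above control-labelled replicate 1. Of the other arterial and mural markers, *Gja4* and *Tagln* also had the order of *Hey2*, and the rest did not. Among the rest, *Unc5b*, *Rgs5*, *Pdgfrb* and *Abcc9* were highest in control-labelled replicate 1. *Jag1*, *Rbpj* and *Hes1* were high in all 3 mutant-labelled libraries, and in *Hes1* mutant-labelled replicate 1 was the highest.

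**Figure D4:**
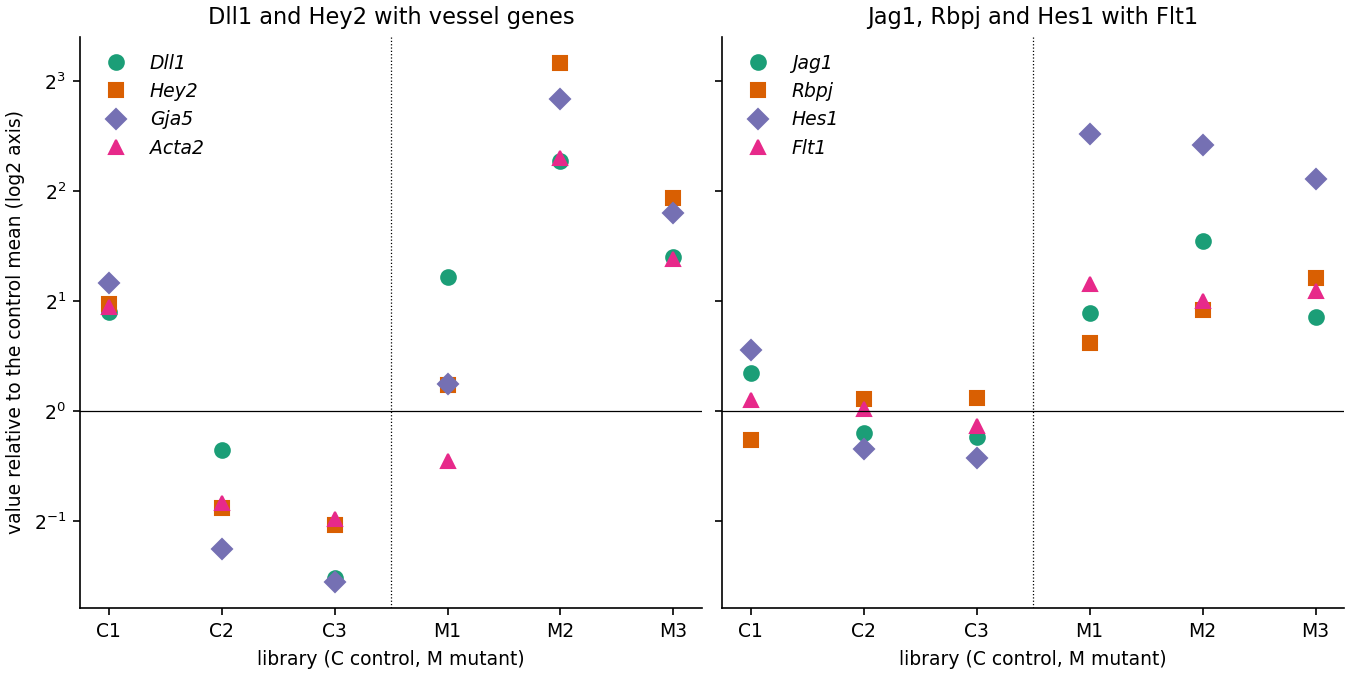
Values of single genes in each library divided by the mean of the 3 control-labelled libraries (log2 axis, C control-labelled, M mutant-labelled). On the left, *Dll1* and *Hey2* stand beside *Gja5* and *Acta2*, vessel genes singled out after their values were seen. On the right, *Jag1*, *Rbpj* and *Hes1* stand beside *Flt1*. Control replicate 1 stands above the other controls in all 4 genes on the left and in *Jag1*, *Hes1* and *Flt1* on the right, mutant replicate 2 is the highest in all 4 on the left and in *Jag1*, and the groups are separate in *Dll1* and in all 4 genes on the right.

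Markers of other cell types were measured in the same way, and their counts stand beside 19.0% of all tested genes called higher and 16.0% called lower. The 9 skeletal muscle markers summed to between 6120 and 32300 in the control-labelled and between 40400 and 307000 in the mutant-labelled libraries, with 5 of 9 higher (*Acta1*, *Ckm*, *Myh8*, *Tnnt3* and *Mylpf*, log2 fold changes from 2.56 to 2.79) and the top sum in mutant-labelled replicate 3. Of these muscle markers 1 was called without control-labelled replicate 2 or mutant-labelled replicate 3, 2 without mutant-labelled replicate 1, 3 without control-labelled replicate 3, and 0 without a variance trend. *Dll1* and *Jag1* were not at their highest in that library, whereas *Rbpj* was. The 6 fibroblast markers summed to between 1020000 and 1490000 in the mutant-labelled against 2490000 to 2890000 in the control-labelled libraries, with the collagen genes *Col1a1* (-1.10), *Col1a2* (-1.01) and *Col3a1* (-1.22) lower and *Pdgfra* at a log2 fold change of 0.16, not called. Of 8 lymphocyte markers 4 were higher (*Cd2*, *Cd8a*, *Nkg7* and *Ncr1*, which had few or no reads in the control-labelled libraries), at sums from 191 to 415 against 41.8 to 89.9. Of 6 macrophage markers, *Ptprc* (1.33) and *Aif1* (1.04) were higher and *Csf1r* (-1.25) and *Mrc1* (-2.27) lower, and their sum was 4920 to 6520 against 9350 to 12600. The perineurial sum was 13700 to 15700 against 16500 to 20000, with 1 of 5 higher and 1, *Itgb4* (-1.62), lower. Of 4 adipocyte markers 0 were called in limma, edgeR or DESeq2, also at an unadjusted p under 0.05. Their sum ran from 3180 to 23200 in the mutant-labelled and from 5280 to 11200 in the control-labelled libraries. It was highest in mutant-labelled replicate 2 and, among the controls, in control-labelled replicate 1. The part of these cell types in the values of the 9 genes was not tested.

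The other genes of the pathway were taken from 5 lists of 50 genes, all of them tested. Of these, 7 were higher and 13 lower, beside 19.0% and 16.0% of all tested genes, or 1 and 7 counted at 2-fold or more, with a median log2 fold change of 0.03. The balance moved with the scaling, with 9 higher and 9 lower when the libraries were rescaled to the same total and 6 and 15 when rescaled to the same 75th percentile. Changes below 2-fold that are named here were singled out after their values were seen.

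Among the enzymes that cut the receptors, 6 of 10 were lower, against 16.0% of all tested genes, and 1 was higher, with a median log2 fold change of -0.48. The count of lower genes was 4 after rescaling to the same total, without a variance trend, and without control-labelled replicate 2 or 3 or mutant-labelled replicate 3. The calls lost there were those of the gamma-secretase genes *Aph1a* (-0.45) and *Psenen* (-0.50), each called in 10 of 18 alternatives. *Adam10*, the main metalloprotease of ligand-dependent cleavage, had 9535, 9611 and 9380 normalized reads in the control-labelled and 3689, 3033 and 3717 in the mutant-labelled libraries. Both groups were tight and far apart (log2 fold change -1.46, 95% interval -1.69 to -1.22, adjusted p = 3.03e-05). *Aph1b* (-1.28) and *Aph1c* (-2.18), near-identical genes of a gamma-secretase subunit whose reads the counting can split, were also lower. *Ncstn*, another gene of that complex, had 0.01 and was not called. *Furin*, the protease gene for the first cut in the Golgi, was the 1 higher gene, at 0.96.

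Of 9 glycosyltransferases that modify the receptors, 2 were lower and 0 higher in limma, edgeR and DESeq2, also at an unadjusted p under 0.05. Of all tested genes, 16.0% were lower and 19.0% higher. The count of lower glycosyltransferases was 1 after rescaling to the same total, without a variance trend, with a replicate block and with the study's limits. It was also 1 without control-labelled replicate 1, 2 or 3 and without mutant-labelled replicate 3. *Rfng*, a fringe gene, was lower by a log2 fold change of -1.0, while its relatives *Lfng* (0.17) and *Mfng* (0.52) were not called. Of 13 ubiquitin ligases and endocytic factors 2 were higher, *Neurl1a* (0.82, called in 14 of 18 alternatives) and *Dtx2* (0.36, called in 10 of 18), and 0 were lower in limma, edgeR and DESeq2, with 2 lower in limma at an unadjusted p under 0.05. Neither was called without control-labelled replicate 2 (adjusted p = 0.051 and 0.0907), control-labelled replicate 3 (0.0533 and 0.0919) or mutant-labelled replicate 1 (0.0579 and 0.0766), and *Dtx2* was also not called without mutant-labelled replicate 2 (0.0692). *Mib1*, which activates ligands by ubiquitination, had 0.33 and was not called.

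Of the nuclear partners of RBPJ, 3 of 11 were higher and 3 lower, beside 19.0% and 16.0% of all tested genes. The Mastermind coactivators were all called, with *Maml2* higher, *Maml3* lower and *Maml1* (0.64) higher. *Maml2* had 977.2, 1008 and 866.8 normalized reads in the control-labelled and 1955, 2371 and 1946 in the mutant-labelled libraries. The groups were separate, and *Maml2* rose by a log2 fold change of 1.13 (adjusted p = 0.000307). *Maml3* had 5994, 7399 and 7157 against 3377, 2491 and 3298, also separate, and its log2 fold change was -1.17 (adjusted p = 0.000449). *Rbpjl*, the paralog of *Rbpj*, was low throughout and uneven, with 87.72, 44.41 and 187.5 in the control-labelled and 4.364, 7.719 and 48.46 in the mutant-labelled libraries. Control-labelled replicate 2 lay below mutant-labelled replicate 3. Its log2 fold change of -2.79 (adjusted p = 0.0405) kept its call in 10 of 18 alternatives and lost it without control-labelled replicate 1 or 3 (adjusted p = 0.0923 and 0.14) or mutant-labelled replicate 1 or 2 (0.12 and 0.114), in edgeR (0.0798), with a pseudocount of 0.1 (0.0537), with no filter on low values (0.0511) and without a variance trend (0.095). Without mutant-labelled replicate 3 the log2 fold change was -3.74, and without mutant-labelled replicate 1 it was -2.14.

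Of 7 other proteins described as Notch ligands, 1 was higher and 2 lower, beside 19.0% and 16.0% of all tested genes. *Cntn1*, an adhesion molecule of axons and glia, had 1748, 1326 and 1488 normalized reads in the control-labelled and 565.2, 287.5 and 513.3 in the mutant-labelled libraries. It was lower in every mutant-labelled library (log2 fold change -1.79, adjusted p = 0.000979). *Dlk1*, a Delta-like protein regarded as an inhibitor of Notch, was higher at 0.80, called in 16 of 18 alternatives. *Mfap2*, of microfibrils, was lower at -0.53 and was called in 11 of 18, losing the call after rescaling to the same total (adjusted p = 0.0989), without a variance trend (0.1) and without control-labelled replicate 1 (0.0762) or 2 (0.0753) or mutant-labelled replicate 1 (0.0641) or 3 (0.0854). *Dll3*, the Delta gene without activating function, had few reads and was not called (1.63, 95% interval -1.14 to 4.4).

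**Figure D5:**
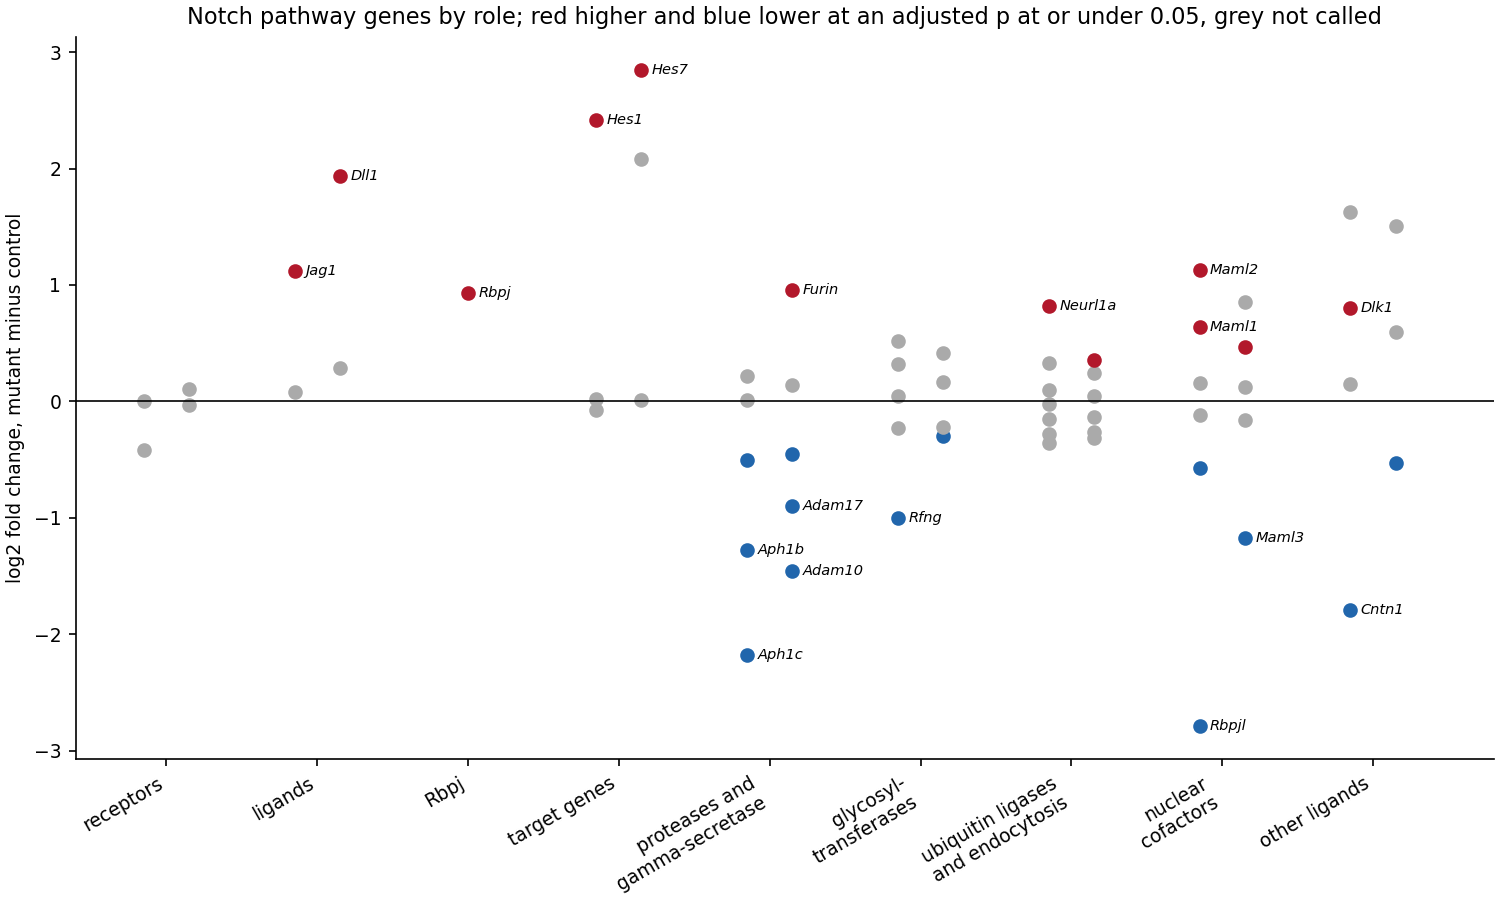
Log2 fold change, mutant-labelled minus control-labelled, of each tested Notch pathway gene as a point, grouped by role, with red for higher and blue for lower at an adjusted p at or under 0.05 and grey for not called, and sideways offsets for legibility alone. The receptors are all grey near 0, *Jag1*, *Dll1*, *Rbpj*, *Hes1* and *Hes7* are red, and the proteases and gamma-secretase genes include 6 blue points and 1 red.

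The profiles closest to the 3 called genes were sought among 12921 genes with a symbol, a mean of at least 100 and no place in the lists, by the root mean square difference of log2 values over the 6 libraries after centring each gene. For *Jag1* these were *Fam20a* (0.102) and *Il1r1* (0.103). For *Rbpj* they were *Lrig1* (0.08) and *Gla* (0.10). For *Dll1* the nearest were *Gata6* (0.21) and *Ptgir* (0.222).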

How the data were processed

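RNA-seq was performed by the authors on the poly-A fraction of P4 sciatic nerves (oriented cDNA, paired-end). Reads were mapped with STAR 2.4.0 to mm10 and counted on constitutive regions of FAST DB genes. Whether the counting used strand is not given in the sources used here, and every member except *Jag1* and *Rbpj* overlaps another row. The deposited values are a signal, namely counts divided by DESeq2 size factors. In all 6 libraries, 100% of values were whole multiples (within 0.01 read) of 1 read, worth 0.727 to 1.27, and the counts so recovered served edgeR and DESeq2. Totals were 55330839, 68654387 and 50938349 reads in control and 78250094, 59098483 and 57047095 in mutant replicates 1 to 3.

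Groups followed the genotype labels. log2(value + 1) was fitted with limma 3.58.1 (lmFit, eBayes with trend, R 4.3.3) for the 25802 genes with a mean of at least 10 in at least 1 genotype, and p-values were adjusted over all of them by the Benjamini-Hochberg method. Fold changes are differences of mean log2(value + 1), where the pseudocount pulls low values together; for uneven low genes such as *Dll1*, *Hes7* and *Rbpjl* they were larger than those of edgeR and DESeq2. The alternatives were other pseudocounts, filters, scalings and variance settings, edgeR 4.0.16, DESeq2 1.42.0, a replicate block, the study's limits and each library left out. The main limma fit, edgeR and DESeq2 were also run on simulated counts with known changes, and the other settings were not. Named were the 9 members, the target genes, the called pathway and marker genes with a change of at least 2-fold, and for each called member the 2 nearest profiles. The members and lists were chosen with earlier results of these data known. P-values measure the spread between animals. A few listed genes are left out of the text by name. Lengths per kb are GENCODE exons, and promoter windows are RefSeq's.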

Additional observations from a re-analysis of the deposited data

How the results depend on the processing

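The counts and the log2 fold changes of members, targets and pathway genes were recomputed under 12 other settings and in 6 fits that left out 1 library each, except that *Dll3* and *Dlk2* passed the filter in 17 of the 18. The ratios, levels per kb and nearest profiles were not recomputed. *Jag1* was called in 18 of 18 (log2 fold change 0.90 to 1.31), *Rbpj* in 17 of 18 (0.78 to 1.09), *Hes1* and *Hes7* in 18 of 18, and *Dll1* in 12 of 18 (1.35 to 2.55). No result changed direction while called. Deviations of same-numbered libraries from their group means were close to uncorrelated (-0.062, -0.055 and 0.009). The labels do not say whether the animals were paired, and these values cannot settle it. With a replicate block 3 members were called higher and 7730 genes in all, against 9040 without it. The block ended the calls of *Aph1a* (adjusted p = 0.067), *Dtx2* (0.0665) and *Pofut1* (0.0764) and no other call among members, targets and pathway genes. With each library left out in turn, 2 to 3 members were called higher, and 1 to 3 passed the study's limits, 1 without mutant-labelled replicate 2 and 3 without mutant-labelled replicate 1. Of the other pathway genes, 8 were lower with variances taken without a trend, and with the study's limits 7 were lower and 1 was higher, with 2671 of all tested genes lower. The cause of the loss under variances without a trend was not tested, and the study's limits drop changes below 2-fold. Rescaling to the same total gave 6331 higher and 3104 lower genes (67.1% higher), against 4906 and 4134 (54.3%), and moved the median of all tested genes from 0.03 to 0.20, and under it 3 members were still higher and 0 lower. *Hes7* and *Rbpjl* rest on few reads, where depth limits the precision, and with 3 libraries per genotype an exact permutation test cannot go below p = 0.1.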
